A study of Homo sapiens with 15 samples.

Results

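Of 1072 microRNA genes that had a named probe set on the arrays, 297 (27.7%) were detected, meaning that the mean log2 value of the gene's highest probe set over all 15 arrays was 4.5 or more, and these 297 genes are described here across BT474 cells and 4 clones derived from them. A microRNA gene was any gene whose symbol is MIR or MIRLET followed by a digit, host genes ending in HG left out. A mean of 4.5 lay above 57.2 to 58.3% of the probe sets of each array. The members were chosen by their mean log2 value over all arrays, so their levels are given as a description without a test.

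BT474 is a human breast cancer cell line with amplified HER2. Each resistant group, named C#1, C#2, C#3 or C#6, is 1 single-cell clone obtained after long exposure to T-DM1 and grown with 5 nM of it for 3 months. T-DM1, or trastuzumab emtansine, joins a HER2 antibody to a microtubule poison. The clones were set against the sensitive parental line, which was not selected with the drug. Where 4 values for the clones follow each other, they run by clone number. Each of the 5 groups had 3 arrays of total RNA, called biological replicates in the labels without a statement of how they were grown, so the p-values measure the spread between these samples. No unselected clone was among the samples and drug presence at harvest is not stated, so resistance, cloning and time in culture cannot be told apart.

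A microRNA gene is transcribed into a long primary transcript, often as an intron of a host gene, from which DROSHA with DGCR8 cuts a hairpin and DICER1 then cuts the mature strand. Bases 2 to 8 of the mature strand, the seed, pair with target messenger RNAs, whose translation and stability the microRNA lowers. Arrays of this kind carry probes for the gene's sequence, so the values report RNA that holds that sequence and do not separate primary transcript, host intron, hairpin and mature microRNA.

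The mature strands of the microRNAs on which the results turn are printed with the seed in capitals, from RefSeq (GRCh38.p14). The set of mature strands used here covered 273 of the 297 members, and shared seeds were counted over these only. The first set comes from the members called in all 4 clones, together with hsa-miR-30e-5p, the strand of another member with the seed of hsa-miR-30a-5p.
hsa-miR-30a-5p: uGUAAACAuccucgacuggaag
hsa-miR-30e-5p: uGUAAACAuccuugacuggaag
hsa-miR-4781-3p: aAUGUUGGaauccucgcuagag
hsa-miR-3944-3p: uUCGGGCUggccugcugcuccgg
hsa-miR-4653-3p: uGGAGUUAaggguugcuuggaga
hsa-miR-3671: aUCAAAUAaggacuagucugca
hsa-miR-3192-5p: uCUGGGAGguuguagcaguggaa
The strands lie at chr6:71403595-71403616 on the minus strand for hsa-miR-30a-5p, chr1:40754371-40754392 on the plus strand for hsa-miR-30e-5p, chr1:54054124-54054145 on the plus strand for hsa-miR-4781-3p, chr10:133371579-133371601 on the minus strand for hsa-miR-3944-3p, chr7:101159524-101159546 on the plus strand for hsa-miR-4653-3p, chr1:65057762-65057783 on the minus strand for hsa-miR-3671 and chr20:18470624-18470646 on the plus strand for hsa-miR-3192-5p.

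The next set comes from members that were called in some clones and not in others. Of these, hsa-miR-21-5p and hsa-miR-590-5p carry the same seed, AGCUUAU.
hsa-miR-21-5p: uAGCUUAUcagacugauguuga
hsa-miR-590-5p: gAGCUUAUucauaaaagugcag
hsa-miR-454-3p: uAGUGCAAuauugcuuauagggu
hsa-miR-4737: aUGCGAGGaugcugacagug
hsa-miR-579-3p: uUCAUUUGguauaaaccgcgauu
hsa-miR-4521: gCUAAGGAaguccugugcucag
hsa-miR-4534: gGAUGGAGgaggggucu
hsa-miR-375-3p: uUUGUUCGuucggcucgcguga
These lie at chr17:59841273-59841294 on the plus strand for hsa-miR-21-5p, chr7:74191213-74191234 on the plus strand for hsa-miR-590-5p, chr17:59137787-59137809 on the minus strand for hsa-miR-454-3p, chr17:60043077-60043096 on the minus strand for hsa-miR-4737, chr5:32394392-32394414 on the minus strand for hsa-miR-579-3p, chr17:8186948-8186969 on the plus strand for hsa-miR-4521, chr22:37988829-37988845 on the plus strand for hsa-miR-4534 and chr2:219001648-219001669 on the minus strand for hsa-miR-375-3p.

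The member means ran between 4.5 and 11.73 with a median of 5.63. The highest were those of MIR4737 (11.73), MIR574 (9.35), MIR3907 (8.57), MIR4324 (8.50) and MIR4533 (8.41), and since each probe set has its own response these values give no order of RNA amounts. Just inside the limit were MIR920 (4.51), MIR521-2 (4.51) and MIR27B (4.5), and just outside it were MIR769 (4.5 after rounding), MIR500B (4.49) and MIR1269A (4.47). In 253 members every group mean was 4.5 or more. The other 44 reached the limit in some groups only, 18 of them with a parental mean below 4.5.

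The detected microRNA genes had hairpins richer in G and C than those below the limit. RefSeq gave a hairpin for 256 members, whose median GC content was 58.7% (quartiles 52.2 and 64.2%), against a median of 45% (quartiles 39.7 and 51.5%) for 628 microRNA genes below the limit. Of 154 microRNA genes with a hairpin GC content of 60% or more, 111 (72.1%) were detected, against 11 of 173 (6.36%) below 40%. Spearman's rho between hairpin GC content and mean log2 value was 0.667 across the 884 microRNA genes with a hairpin, which share the arrays and the probe chemistry, so it is a description across genes. Median hairpin length was 81.5 bases for members and 83 bases for the others. The part of probe base composition in which genes passed the limit was not tested.

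**Figure D1:**
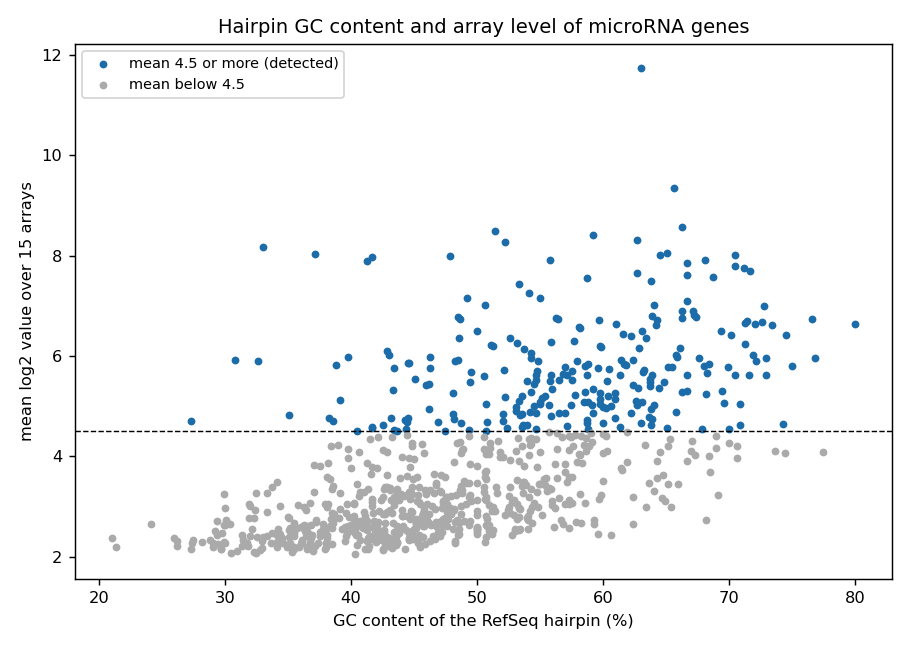
Mean log2 value over 15 arrays (vertical axis) against GC content of the RefSeq hairpin in percent (horizontal axis) for 884 microRNA genes, 1 point a gene, with the limit of 4.5 as a dashed line. Detected genes (blue) have a median GC content of 58.7% and the others (grey) 45%.

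Members also varied more between replicates than other genes did. The median within-group SD of the members was 0.24 on the log2 scale, against 0.15 for 9006 other genes with a mean of 4.5 or more. Among genes with a mean below 6 the medians were 0.25 for 203 members and 0.18 for 3158 other genes. The SE of a clone minus parental difference ran between 0.09 and 0.38 over the members, with a median of 0.17.

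The cells had the markers of luminal breast epithelium in every group. All 11 luminal genes on the array, KRT18, EPCAM and ESR1 among them, had means above 4.5, although some of their levels differed between groups. GATA3, a luminal transcription factor, averaged 6.23, 5.98, 8.36 and 6.77 in the 4 clones, against 9.12 in parental cells, and ESR1, the oestrogen receptor, 7.52, 7.74, 7.92 and 7.8, against 8.35. GRB7, a neighbour of HER2 on chromosome 17, averaged 10.31, 10.15, 9.50 and 9.31 in the 4 clones, against 10.37 in parental cells, and TFF1 11.51, 11.97, 11.40 and 12.32, against 10.82. Both basal keratins (KRT5 and KRT14), both leukocyte markers, both endothelial markers and the fibroblast genes DCN and LUM had means below it. VIM, also on the fibroblast list, lay between 5.88 and 7.41 over the arrays, with means of 6.14 in C#1, 6.21 in C#2, 6.71 in C#3 and 6.00 in C#6, against 7.24 in parental cells. The part of these marker differences in the results on microRNA genes was not tested. After the authors' normalization the upper quartile of the arrays still differed, 5.80 to 5.89 in the clones and 5.94 to 5.96 in parental cells.

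The first comparison asked which microRNA genes a resistant clone expressed differently from parental cells. MIR30A rose in all 4 clones and MIR4653 and MIR3671 fell in all 4, while 217 of the 297 detected microRNA genes passed the test in no clone. Genes with an adjusted p below 0.05 count as called (limma, Benjamini-Hochberg over all 12147 genes tested, among them all 297 members). In C#1, 12 members were called higher and 16 lower, which is 4.04% and 5.39% of the members, against 6.03% and 11.2% of all genes. In C#2, 16 were called higher and 17 lower (5.39% and 5.72%, against 5.47% and 11.5% of all genes). In C#3, 21 were higher and 15 lower (7.07% and 5.05%, against 6.22% and 11% of all genes), and in C#6, 21 were higher and 19 lower (7.07% and 6.4%, against 7.73% and 14.7% of all genes). The rule bears on these shares, because a gene low in parental cells could pass the limit through the clones, and the reverse. A parental mean below 4.5 was found in 18 members, and 9 of these, MIR30A among them, were called in at least 1 clone. A parental mean of 4.5 or more with a clone mean below it was found in 26 members. Of these, 6 were called in at least 1 clone, MIR3671 and MIR590 among them. Among the 253 members with every group mean at 4.5 or more, a split added after the data were seen, 3.95, 4.35, 6.32 and 6.72% were called higher and 5.53, 5.53, 4.74 and 5.93% lower in the 4 clones.

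In all, 80 members (26.9%) were called in at least 1 clone, against 37.5% of all genes. Of the 80, 42 were called higher and 38 lower, 47 in 1 clone only, and 0 in opposite directions in different clones. These splits were not counted over all genes, so they describe the members only. Each array reads a whole culture, so fewer cells with a transcript and less of it per cell cannot be told apart. The number called with a change of at least 2-fold was 7 in C#1, 5 in C#2, 6 in C#3 and 5 in C#6, or 2.36, 1.68, 2.02 and 1.68% of the members, against 1.19, 1.37, 1.35 and 2.19% of all genes. The median change over the members was 0.01, 0.04, 0.05 and 0.05 in the 4 clones, against medians over all genes between -0.02 and 0.00. The split by direction depended on the scaling: with quantile normalization run again, 37.5, 34.1, 31.6 and 27.8% of the calls in the 4 clones were lower, against 57.1, 51.5, 41.7 and 47.5% on the deposited values. Single parental arrays moved these counts too: without parental replicate 3, 13 members were called in C#1 and 25 in C#6, and without parental replicate 2, 22 were called in C#3 and 26 in C#6. Without C#3 replicate 3, 22 were called in C#3.

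**Figure D2:**
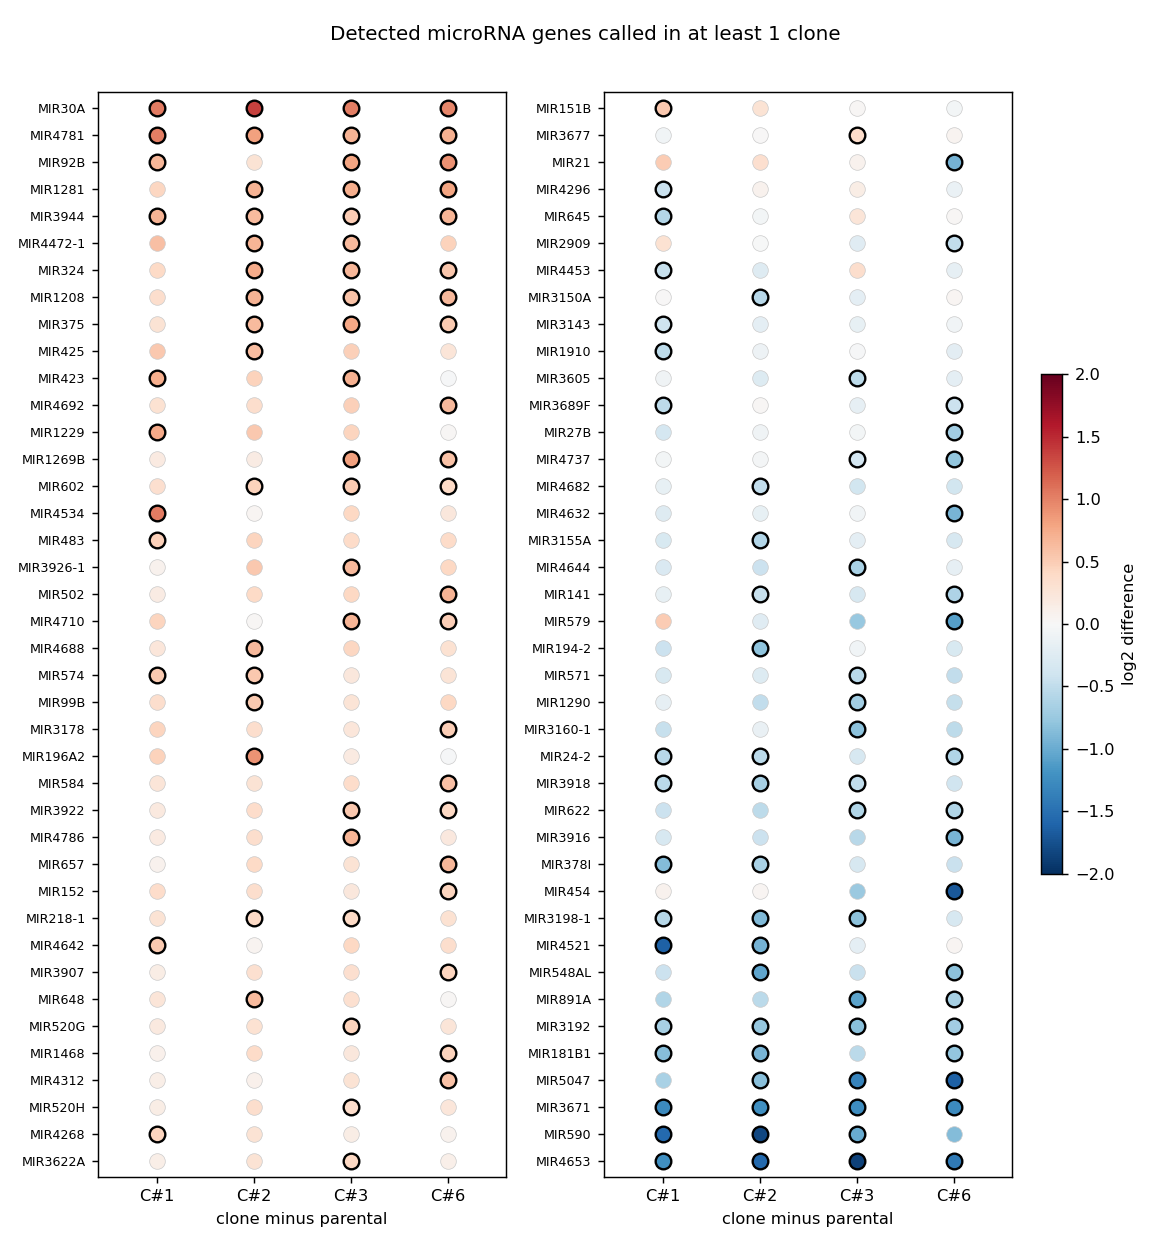
The 80 detected microRNA genes called in at least 1 clone, 1 row a gene, ordered by their changes, with the 4 clones by number on the horizontal axis. Colour gives the log2 difference, clone minus parental (red higher, blue lower), and a black ring marks an adjusted p below 0.05. No gene has rings of both colours.

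Members called the same way in all 4 clones numbered 3 higher (1.01%, against 1.04% of all genes) and 3 lower (1.01%, against 3.65% of all genes). The rule bears on both directions. MIR30A and MIR4781 had a parental mean below 4.5 and reached the limit through the clones, and MIR3671, among the lower ones, reached it through the parental arrays. The clones share the parental arrays, so the 4 comparisons are not independent of each other.

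MIR30A encodes a member of the miR-30 family, which is known in breast epithelium for restraining mesenchymal genes. Its log2 values were 5.47, 4.80 and 4.73 in C#1, 5.42, 5.54 and 5.06 in C#2, 5.58, 4.80 and 4.59 in C#3 and 5.15, 4.88 and 4.81 in C#6, against 3.96, 4.18 and 3.77 in parental cells. All 12 clone arrays lay above all 3 parental arrays. The change was 1.03, 1.37, 1.02 and 0.98 in the 4 clones (SE 0.23, adjusted p 0.00534, 0.000717, 0.00595 and 0.00566), near 2-fold. The parental mean was below 4.5, so MIR30A reached the limit through the clones. MIR30E, which shares both mature seeds with MIR30A (GUAAACA and UUUCAGU), was not called, with changes of 0.11, 0.33, 0.28 and 0.22 (SE 0.20).

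MIR4781 lies on the same strand as TCEANC2, and its values were 5.07, 5.18 and 4.76 in C#1, 4.87, 4.78 and 4.73 in C#2, 5.08, 4.61 and 4.34 in C#3 and 4.66, 4.66 and 4.73 in C#6, against 4.18, 3.92 and 3.82 in parental cells. No clone array overlapped the parental arrays. As for MIR30A, the parental mean was below 4.5 and the gene reached the limit through the clones. The changes were 1.03, 0.82, 0.70 and 0.71 (SE 0.16). TCEANC2 itself rose in C#1 by 0.40 (adjusted p 0.041, lost in 7 of the 15 fits that left out 1 array), and its changes of 0.11, 0.10 and 0.10 in C#2, C#3 and C#6 did not pass.

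MIR3944, within ECHS1, a gene of mitochondrial fatty acid oxidation, had 6.97, 6.78 and 7.21 in C#1, 6.89, 7.09 and 6.79 in C#2, 6.62, 6.63 and 7.17 in C#3 and 7.15, 6.85 and 6.92 in C#6, against 6.41, 6.15 and 6.33 in parental cells. Again no clone array overlapped the parental arrays. The changes were 0.69, 0.63, 0.51 and 0.67 (SE 0.15), and the call in C#3 was lost without parental replicate 2 (or 3) and without C#3 replicate 3, with an adjusted p of up to 0.158.

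Among the members lower in all 4 clones, MIR4653 lies within AP1S1, which encodes a subunit of a clathrin adaptor complex. Its values were 5.39, 5.95 and 6.21 in C#1, 5.67, 5.16 and 5.69 in C#2, 5.15, 4.91 and 5.57 in C#3 and 5.05, 6.20 and 5.75 in C#6, against 7.04, 6.86 and 7.32 in parental cells. Every clone array was below every parental array. MIR4653 fell by 1.23, 1.57, 1.87 and 1.41 on the log2 scale in the 4 clones (SE 0.26, adjusted p 0.00409, 0.000696, 0.000182 and 0.00102), 2.34-fold to 3.64-fold lower. A further probe set of MIR4653 gave -1.48, -1.95, -2.05 and -1.60 in the same order.

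MIR3671 lies within JAK1, a kinase of cytokine signalling. It had 3.97, 4.58 and 4.78 in C#1, 4.22, 4.82 and 4.46 in C#2, 4.45, 4.83 and 4.12 in C#3 and 4.74, 3.80 and 4.80 in C#6, against 5.67, 5.31 and 6.18 in parental cells. The clone arrays again lay below all parental arrays, and MIR3671 reached the limit of 4.5 through the parental arrays. The changes of -1.28, -1.22, -1.26 and -1.27 (SE 0.28) were alike across the clones, and a further probe set gave -0.93, -0.78, -0.93 and -1.09. JAK1 was not called in any clone, with changes of 0.20, 0.12, 0.11 and 0.05.

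MIR3192, within POLR3F, a subunit gene of RNA polymerase III, had 4.40, 5.13 and 4.82 in C#1, 4.84, 4.72 and 4.46 in C#2, 4.56, 4.92 and 4.35 in C#3 and 4.98, 4.44 and 4.86 in C#6, against 5.44, 5.34 and 5.58 in parental cells. There was no overlap with parental cells here either. The changes were -0.67, -0.78, -0.84 and -0.69 (SE 0.19). Its call in C#1 was lost without parental replicate 1 (or 3) and without C#1 replicate 1, with an adjusted p of up to 0.105, and its call in C#6 without parental replicate 3 and without C#6 replicate 2, with an adjusted p of up to 0.0751.

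**Figure D3:**
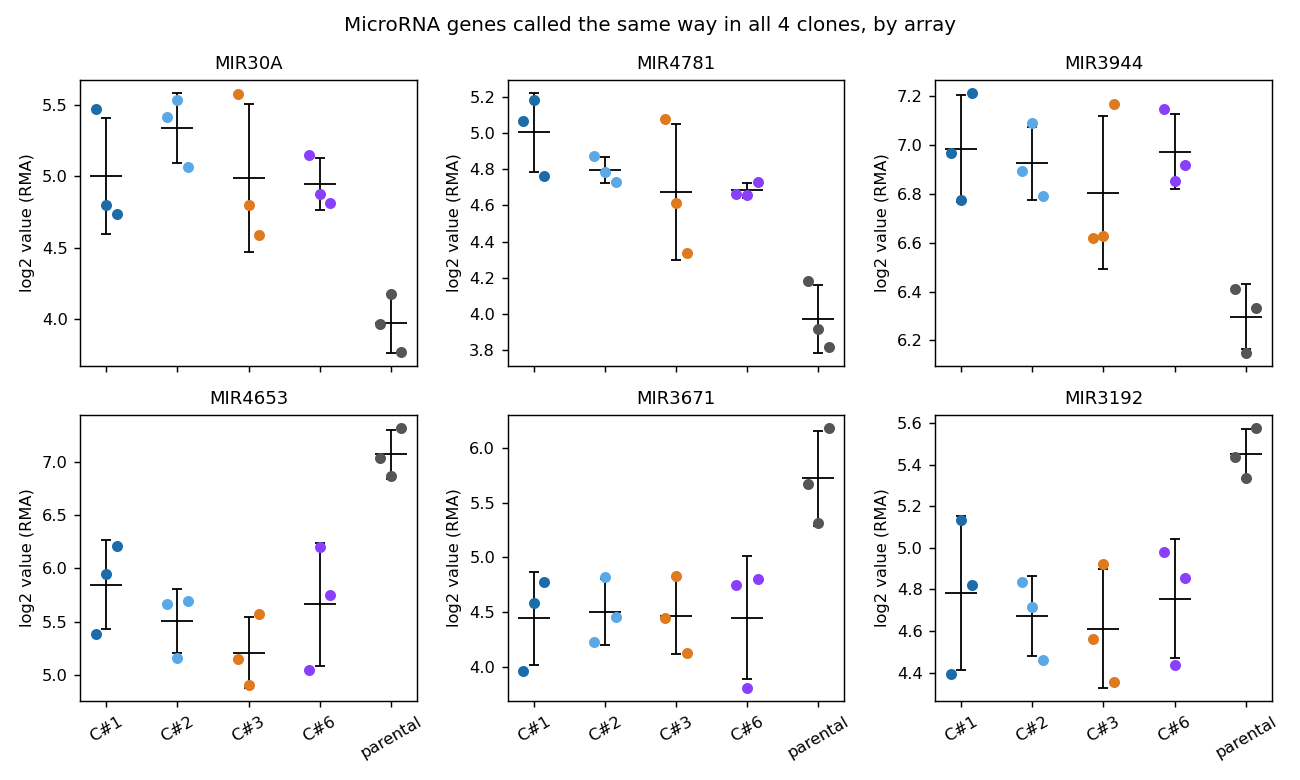
Log2 values of the 6 detected microRNA genes called the same way in all 4 clones, 1 point an array, with the clones to the left and parental cells at the right of each panel. Bars are group means with the SD (n = 3), and each panel has its own vertical axis, which does not start at 0. In each panel the 12 clone arrays lie on 1 side of the 3 parental arrays.

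A further 12 members were called in 3 of the clones, 6 of them higher and 6 lower, and the share over all genes was not counted. Among the higher ones, MIR92B, which shares a seed with MIR25, had 6.00, 5.98 and 5.86 in C#1, 5.62, 5.53 and 5.55 in C#2, 6.33, 5.67 and 6.21 in C#3 and 6.24, 6.18 and 6.14 in C#6, against 5.34, 5.64 and 4.85 in parental cells. Only the C#2 arrays overlapped the parental arrays, and the changes were 0.67, 0.79 and 0.91 in C#1, C#3 and C#6 (SE 0.17, the first lost without parental replicate 3) and 0.29 in C#2, which did not pass. MIR1281, MIR324 and MIR1208 rose in C#2, C#3 and C#6, MIR1281 by 0.70, 0.73 and 0.79, MIR324 by 0.75, 0.66 and 0.55 and MIR1208 by 0.70, 0.59 and 0.64. The MIR324 call in C#3 was lost without parental replicate 2 and that in C#6 in 5 of the fits that left out 1 array. Among the lower ones, MIR181B1 fell by 0.86, 0.93 and 0.79 in C#1, C#2 and C#6 (SE 0.22), with the call in C#1 lost without parental replicate 3 or C#1 replicate 1 and that in C#6 lost in 4 such fits.

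The next comparison asked whether the clones differed from each other. For example, MIR21, MIR454 and MIR4737 were lower in C#6 than in C#1, MIR4521 was lower in C#1 than in C#6 and MIR4534 was higher in C#1 than in C#6. An F test among the 4 clones called 31 members (10.4%), against 22.5% of all genes. Between C#1 and C#2, limma called 0 members and 0% of all genes, although 43 members and 807 genes had an unadjusted p below 0.05. Between C#1 and C#3, 18 members were called (6.06%, against 16.8% of all genes), and between C#1 and C#6, 19 (6.4%, against 12.7%). Between C#2 and C#3, 10 were called (3.37%, against 15.8%), between C#2 and C#6, 18 (6.06%, against 11.2%), and between C#3 and C#6, 10 (3.37%, against 9.01%). The share of members was below that of all genes in the F test and in each of these 5 pairs of clones, and the difference between the shares was not tested. Several of these counts hung on 1 array: 10 without C#1 replicate 3 for C#1 against C#3, 9 without C#1 replicate 2 and 12 without C#6 replicate 3 for C#1 against C#6, and 18 without C#2 replicate 2 for C#2 against C#3. For C#2 against C#6 the count was 10, 11, 9 and 7 without C#2 replicate 1, C#2 replicate 3, C#6 replicate 2 and C#6 replicate 3, and for C#3 against C#6 it was 6 without C#3 replicate 1 and also 6 without C#6 replicate 2.

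In C#6 a run of microRNA genes on chromosome 17 was lower. MIR454, MIR21 and MIR4737 follow one another among the 26 members of chromosome 17, and each was called lower in C#6. This run was picked after its values were seen, so it is a description. MIR21, an oncogenic microRNA raised in many breast tumours, had 7.37, 7.41 and 6.93 in C#1, 7.38, 7.01 and 6.83 in C#2, 6.90, 6.99 and 6.58 in C#3 and 6.40, 5.28 and 5.70 in C#6, against 6.75, 7.12 and 6.34 in parental cells. The C#6 arrays were lower than the others except that the highest of them, 6.40, passed the lowest parental array, 6.34. MIR21 fell by 0.95 in C#6 (SE 0.25, adjusted p 0.0108), while its changes of 0.50, 0.34 and 0.09 in C#1, C#2 and C#3 did not pass. The call in C#6 was lost without parental replicate 2 and without C#6 replicate 2, with an adjusted p of up to 0.0654, and the difference of 1.45 between C#1 and C#6 was called (adjusted p 0.00104). VMP1, the gene that overlaps MIR21 on its strand and acts in autophagy, changed by -0.15 in C#6, which did not pass. Its rise of 0.30 in C#1 was called (limma, adjusted p 0.0249), and its changes of 0.21 in C#2 and -0.03 in C#3 did not pass. VMP1 was also higher in C#1 than in C#6, by 0.45 (limma, adjusted p 0.00269).

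MIR454 lies within SKA2, a gene of the spindle and kinetochore. Its values were 5.05, 5.30 and 6.62 in C#1, 5.27, 5.52 and 6.07 in C#2, 4.95, 5.05 and 4.53 in C#3 and 4.28, 3.05 and 4.30 in C#6, against 5.81, 5.08 and 5.84 in parental cells. All C#6 arrays were below all others. MIR454 fell by 1.70 in C#6 (SE 0.38, adjusted p 0.00377), and SKA2 fell by 0.62 there too (adjusted p 0.000365).

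MIR4737, the member with the highest array value, had 11.85, 12.01 and 11.91 in C#1, between 11.83 and 12.01 in C#2, 11.62, 11.61 and 11.61 in C#3 and 11.32, 11.15 and 11.10 in C#6, against 11.96, 12.03 and 11.96 in parental cells. MIR4737 lies within the span of HEATR6, whose strand was not known here, so HEATR6 was not compared with it. For MIR4737, C#3 lay below C#1, C#2 and parental cells, and C#6 below C#3. The change was -0.79 in C#6 (SE 0.09, adjusted p 1.91e-05) and -0.37 in C#3 (adjusted p 0.0122, lost without parental replicate 2), and those of -0.06 in C#1 and -0.04 in C#2 did not pass. MIR5047, the next member along the chromosome, fell in C#2, C#3 and C#6. It had 8.01, 8.18 and 8.83 in C#1, 8.19, 8.16 and 8.14 in C#2, 7.67, 7.75 and 7.54 in C#3 and 7.88, 6.80 and 7.38 in C#6, against 8.91, 8.91 and 9.15 in parental cells. Its changes were -0.83, -1.34 and -1.63 in C#2, C#3 and C#6 (SE 0.22, adjusted p 0.0155, 0.000635 and 6.07e-05), and -0.65 in C#1 (adjusted p 0.0509), and the call in C#2 was lost without parental replicate 3. Not all members of chromosome 17 were lower in C#6: of the 26, 5 were called lower and 4 higher, with MIR324, MIR1269B, MIR152 and MIR657 the higher ones.

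MIR579, within ZFR, an RNA-binding protein gene of chromosome 5, had 6.44, 6.32 and 7.42 in C#1, 6.11, 5.73 and 6.09 in C#2, 5.57, 5.66 and 5.17 in C#3 and 5.60, 4.60 and 5.14 in C#6, against 6.03, 6.19 and 6.44 in parental cells. Only C#3 and C#6 lay wholly below parental cells. It was called in C#6 alone (-1.11, SE 0.26, adjusted p 0.0061), with -0.75 in C#3, -0.24 in C#2 and 0.50 in C#1, and C#1 was 1.61 above C#6 (adjusted p 0.00077). ZFR changed by -0.24 in C#6, which did not pass.

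MIR4521 fell in C#1 and C#2. Its values were 6.81, 7.64 and 6.22 in C#1, 7.67, 7.71 and 7.37 in C#2, 7.75, 8.85 and 8.42 in C#3 and 8.43, 8.60 and 8.65 in C#6, against 8.55, 8.26 and 8.77 in parental cells. C#6 spread over the same range as parental cells. The changes were -1.64 in C#1 (SE 0.29, adjusted p 0.00098), -0.94 in C#2 (adjusted p 0.0322, lost without any 1 of the C#2 arrays or without parental replicate 1 or 3), -0.19 in C#3 and 0.03 in C#6, and C#1 minus C#6 was -1.67 (adjusted p 0.00111). MIR4534, within POLR2F, rose in C#1 by 1.03 (SE 0.20, adjusted p 0.00175), and its C#1 minus C#6 difference of 0.81 was lost without C#1 replicate 2 or C#6 replicate 3. It had 5.82, 5.87 and 5.50 in C#1, 5.13, 4.47 and 4.62 in C#2, 5.04, 5.25 and 5.05 in C#3 and 4.95, 5.37 and 4.44 in C#6, against 4.66, 4.81 and 4.63 in parental cells, so that C#1 was above every other array. No member was called between C#1 and C#2, MIR4521 and MIR4534 included.

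**Figure D4:**
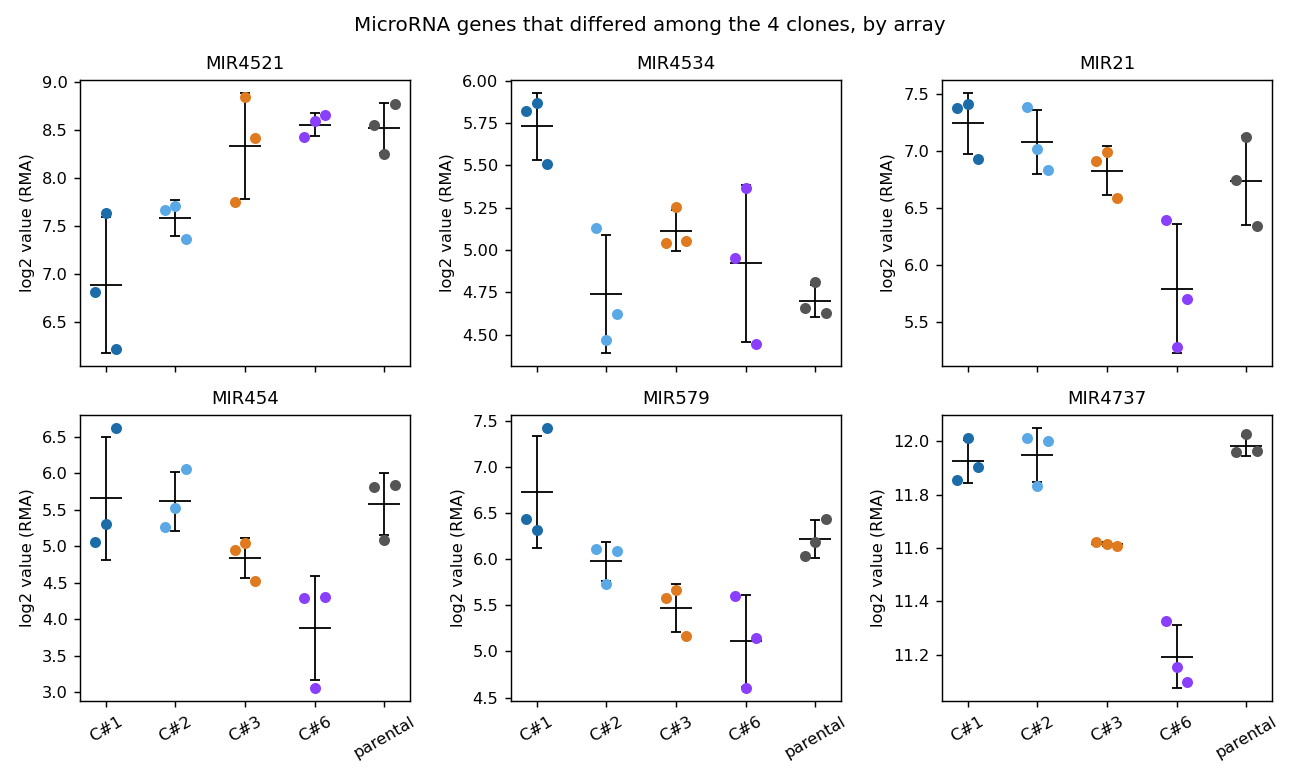
Log2 values of 6 detected microRNA genes called in the F test among the clones, 1 point an array, with the clones to the left and parental cells at the right of each panel. Bars are group means with the SD (n = 3), and each panel has its own vertical axis, which does not start at 0. MIR21, MIR454 and MIR4737 are lowest in C#6, MIR4521 is lowest in C#1 and MIR4534 is highest in C#1, although no member was called between C#1 and C#2.

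MIR590 carries the seed of MIR21 and lies within EIF4H, a translation initiation factor gene. It had 4.0, 4.47 and 4.48 in C#1, 3.96, 4.57 and 3.62 in C#2, 4.79, 5.68 and 4.11 in C#3 and 5.16, 4.84 and 4.99 in C#6, against 5.42, 5.92 and 6.26 in parental cells. C#1, C#2 and C#6 lay below all parental arrays and 1 C#3 array did not. MIR590 fell by 1.55, 1.81 and 1.01 in C#1, C#2 and C#3 (SE 0.31, adjusted p 0.00275, 0.000886 and 0.0364), the last lost without either of 2 parental arrays (replicates 2 and 3) and without C#3 replicate 1 or 3. The change of -0.87 in C#6 did not pass (adjusted p 0.0574), and the F test did not show a difference among the clones (adjusted p 0.089). EIF4H rose in C#3 by 0.38 and in C#6 by 0.40, the direction opposite to MIR590 in C#3.

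Some members are known for roles in breast cancer. Of a list of 79 microRNA genes known from breast cancer or HER2, 68 were on the array and 21 were detected, and 6 of those (28.6%, against 26.9% of all members and 37.5% of all genes) were called in at least 1 clone, namely MIR21, MIR30A, MIR375, MIR24-2, MIR141 and MIR27B. MIR375, which is high in luminal and oestrogen receptor positive breast cells, had 6.57, 6.70 and 6.73 in C#1, 7.13, 7.01 and 6.87 in C#2, 7.22, 7.0 and 7.23 in C#3 and 6.72, 6.84 and 7.13 in C#6, against 6.56, 6.35 and 6.22 in parental cells. It rose by 0.63, 0.77 and 0.52 in C#2, C#3 and C#6 (SE 0.12, adjusted p 0.00228, 0.000513 and 0.006), and its change of 0.29 in C#1 did not pass. Of the luminal markers, GATA3, ESR1, KRT18 and GRB7 had lower means in each clone than in parental cells. TFF1, EPCAM, KRT19 and ERBB3 had higher means in each clone, and KRT8, FOXA1 and KRT7 differed in direction between clones.

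MIR24-2 fell by 0.56, 0.55 and 0.61 in C#1, C#2 and C#6 (SE 0.12), with values of 5.69, 5.87 and 5.70 in C#1, 5.51, 5.88 and 5.89 in C#2, 6.03, 6.04 and 5.83 in C#3 and 5.71, 5.55 and 5.84 in C#6, against 6.37, 6.26 and 6.29 in parental cells. All clone arrays were below the parental arrays, although the change of -0.34 in C#3 did not pass (adjusted p 0.0575). MIR141, of the miR-200 family that maintains the epithelial state, fell by 0.61 in C#6 (SE 0.14, adjusted p 0.00381) and by 0.46 in C#2 (adjusted p 0.0291, lost without any 1 of the parental arrays and without C#2 replicate 2 or 3), while MIR200C, its neighbour in the same cluster, was called in no clone (-0.55, -0.28, 0.13 and -0.44, SE 0.25). MIR27B fell by 0.70 in C#6 (SE 0.15, adjusted p 0.00287), and its cluster neighbour MIR23B did not pass there (-0.21).

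The detected genes of the let-7 family, tumour suppressors in many tissues, passed in no clone. Other let-7 genes were below the limit or had no named probe set and are not described here. The seed GAGGUAG was shared by 6 members, MIRLET7A1, MIRLET7A3, MIRLET7D, MIRLET7E, MIR98 and MIR4458. Their changes lay between -0.29 (MIRLET7A1 in C#6, SE 0.35) and 0.35 (MIRLET7E in C#6, SE 0.15). The strands are printed to show the shared seed.
hsa-let-7a-5p: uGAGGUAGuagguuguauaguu
hsa-let-7d-5p: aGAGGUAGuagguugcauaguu
hsa-let-7e-5p: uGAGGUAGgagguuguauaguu
hsa-miR-98-5p: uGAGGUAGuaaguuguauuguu
hsa-miR-4458: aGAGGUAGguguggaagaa
In all, 22 seeds were shared by more than 1 member, over 42 members, of which 11 (26.2%, against 26.9% of all members) were called in at least 1 clone. In 2 of these seed groups more than 1 member was called: AGCUUAU with MIR21 and MIR590, called lower in different clones (MIR21 in C#6, MIR590 in C#1, C#2 and C#3), and CAAAGUG with MIR520G and MIR520H, both called higher in C#3 (0.46 and 0.37). MIR520G and MIR520H are nearly the same in sequence, as are the MIR3689 genes, so their probe sets may read each other's RNA and their values are uncertain. Members within 10000 bases of another member formed 16 groups of 40 genes, 10 of which (25%) were called in at least 1 clone, and in 0 groups was more than 1 member called.

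Host genes gave a further view of these loci. A protein-coding or long noncoding gene on the same strand held 160 of the members, and 93 microRNA genes and 84 hosts could both be tested. Both were called in the same direction in 1, 1, 2 and 2 pairs in the 4 clones, and in opposite directions in 0, 0, 2 and 0. The microRNA gene alone was called in 10, 7, 5 and 8 pairs and the host alone in 16, 12, 10 and 19. Of the 84 hosts, 17.9, 14.3, 15.5 and 22.6% were called in the 4 clones, near the 17.2, 16.9, 17.2 and 22.4% of all genes. The pairs called together were MIR4781 with TCEANC2 in C#1, MIR425 with DALRD3 in C#2 (0.61 and 0.71), MIR3160-1 with AMBRA1 (-0.82 and -0.36) and MIR3198-1 with BID (-0.82 and -0.40) in C#3, and MIR454 with SKA2 and MIR2909 with AATF (-0.49 and -0.74) in C#6. The MIR3160-1 call was lost in 6 and the AMBRA1 call in 3 of the fits that left out 1 array, and a further probe set of MIR3160-1 changed by -0.14. The MIR2909 call was lost without parental replicate 1 or 2, without C#6 replicate 2 and with quantile normalization run again. Opposite calls were those of MIR590 with EIF4H and MIR218-1 with SLIT2 (0.39 and -0.72), both in C#3. Across the 93 pairs Pearson's r between the changes was 0.20, 0.14, 0.04 and 0.15 in the 4 clones, a description across genes that share arrays.

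**Figure D5:**
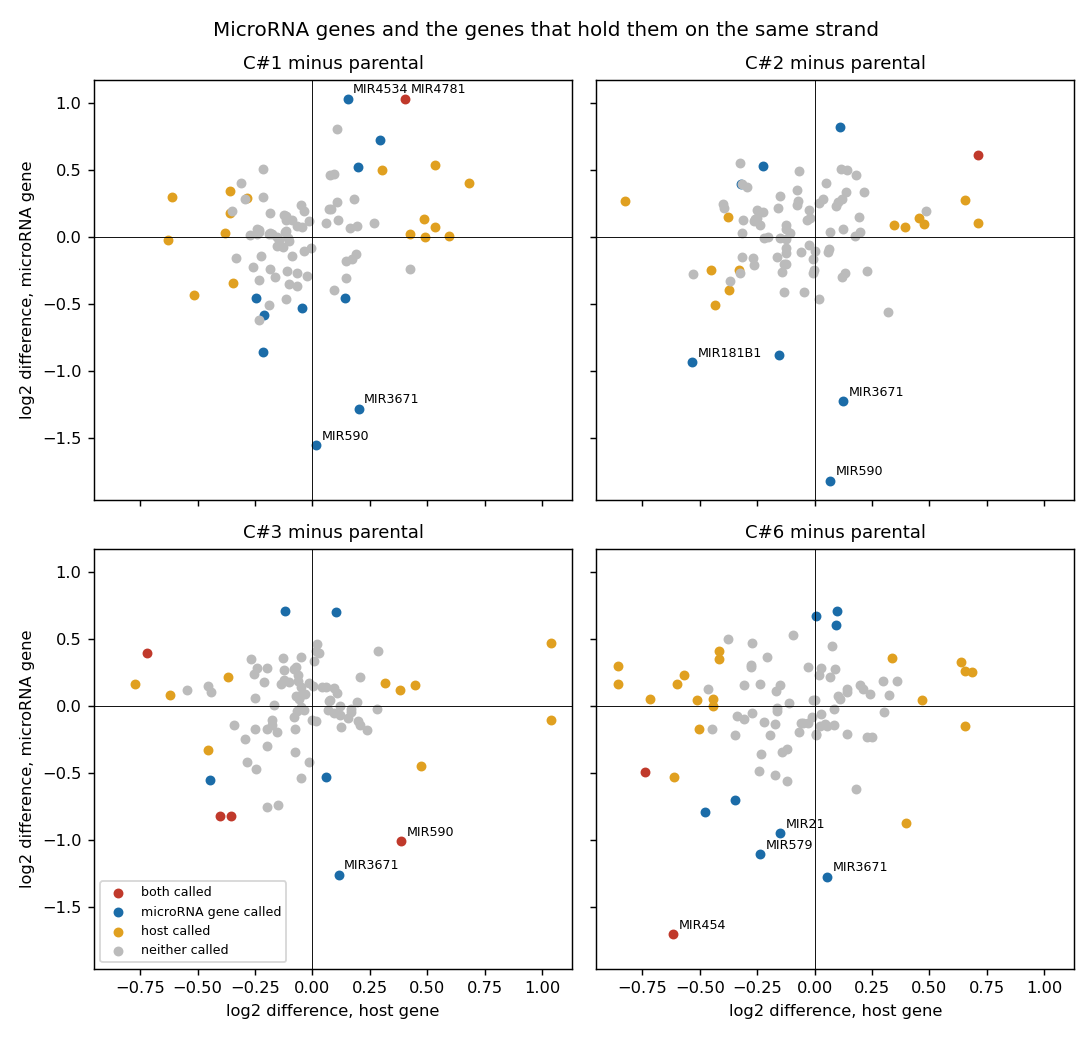
Log2 difference, clone minus parental, of the microRNA gene (vertical axis) against that of the gene that holds it on the same strand (horizontal axis), 1 panel a clone and 1 point for each of 93 pairs. Colours mark which of the pair was called, and both were called in 1, 1, 4 and 2 pairs in the 4 clones.

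The genes that make and use microRNAs were called lower more often than higher, as were all genes. Of a list of 41 such genes, 26 had a symbol on the array and 24 were tested, and DROSHA, DICER1 and the AGO genes had no named probe set and are not analysed here. In the 4 clones, 5, 8, 5 and 6 of the 24 were called lower and 0, 0, 1 and 0 higher. The lower calls were 20.8, 33.3, 20.8 and 25% of the genes tested, beside the 11.2, 11.5, 11 and 14.7% of all genes. The higher calls were 0, 0, 4.17 and 0%, beside 6.03, 5.47, 6.22 and 7.73% of all genes. The difference between these shares was not tested. With quantile normalization run again, 2, 4, 6 and 4 of the 24 were called in the 4 clones. HNRNPA1, an RNA-binding protein that acts on some primary microRNAs, was the 1 gene called in all 4 clones (-0.74, -0.68, -1.04 and -1.29). It has many near-identical copies in the genome, so its value is uncertain, and its calls in C#1 and C#2 were lost when any of 4 and 6 arrays was left out. DGCR8, the partner of DROSHA, fell by 0.47 in C#1 and 0.48 in C#2 (adjusted p 0.0283 and 0.0246), each lost in 4 of the fits that left out 1 array. TNRC6A, of the silencing complex, fell by 0.38, 0.51 and 0.46 in C#1, C#2 and C#3, and TNRC6C rose by 0.57 in C#3. XPO5, the exporter of hairpins, was not called (-0.26, -0.18, -0.22 and -0.22). These counts depended on single arrays, running over 0 to 5, 2 to 9, 2 to 7 and 3 to 6 called genes in the 4 clones with 1 array left out. In C#1 the count was 2, 3 and 0 without parental replicates 1, 2 and 3, and 1 and 2 without C#1 replicates 1 and 2. In C#2 it was 4, 4 and 2 without parental replicates 1, 2 and 3, and 4, 2 and 5 without C#2 replicates 1, 2 and 3. In C#3 it was 3 and 2 without parental replicates 1 and 3 and 2 without C#3 replicate 3, and in C#6 it was 3 without parental replicate 2 and also without C#6 replicate 1 or 2.

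Other probe sets and base composition bear on how the calls read. Of the called members, 11 had a further probe set with values of its own, which covered 21 calls, and it changed in the same direction in 19 and by at least 50% of the change in 13. MIR423, called higher in C#1 (0.73) and C#3 (0.71), had a further probe set at -0.15 and 0.07. MIR3622A, called higher in C#3 (0.41), had a further probe set at -0.32 there, with a mean value of 5.46. MIR4521 in C#1 had a further probe set at -0.77, with a mean value of 2.76. Members called higher in any clone had a median hairpin GC content of 60.7% (34 with a hairpin), members called lower 53.5% (30 with a hairpin), and members called in no clone 58.8%. Spearman's rho between hairpin GC content and log2 change over the 256 members with a hairpin was 0.12, 0.15, 0.28 and 0.24 in the 4 clones. The part of base composition in the direction of the calls was not tested.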

How the data were processed

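Total RNA of 15 BT474 samples (12 of 4 resistant clones, 3 of the parental line) had been hybridised to Affymetrix gene arrays. The authors deposited log2 values for 53617 probe sets. The Transcriptome Analysis Console, Affymetrix Expression Console 1.4.1 and RMA are named in the submitters' processing notes, and their roles and the genome build are not given in the sources used here. The RMA method makes arrays alike in distribution, so a change shared by most genes would be largely removed, and changes near background are compressed. The number of arrays limits the precision.

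Of the probe sets, 16098 (30.0%) had 1 symbol in the platform annotation, 0 had several and 37519 had none. All 16098 were matched to RefSeq (GRCh38.p14), which also gave hosts, hairpins and mature sequences. The set of hairpins used here held none for 41 members. Each of 14884 genes was read from its probe set of highest mean. Genes above the 40th percentile of their array in at least 3 arrays were tested (12147, with 208 of the 775 microRNA genes below the limit). limma 3.58.1 fitted 1 mean per group to all 15 arrays, with 10 residual degrees of freedom, followed by eBayes and Benjamini-Hochberg adjustment within each comparison. The fit was tested on simulated data. The members and all gene lists were chosen with earlier results of these data known. Chosen for naming were the 10 highest members and those called in all 4 clones. Per direction and clone, up to 6 members with no overlap with parental arrays were added, ranked by change. Further choices were the 8 with the smallest adjusted p among clones, those at the limit, and the breast cancer, let-7, biogenesis and host lists. Not every gene so chosen is printed here. MIR425, MIR3198-1, MIR218-1, MIR520G, MIR520H, MIR324, MIR152 and MIR657 were named to account for counts, some of them after their values were seen.

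Replicate numbers were not taken as pairs. Alternatives covered the filter, the scaling, the replicate block, the samples fitted, eBayes settings, array weights, the probe set rule, the threshold, the limit for members and leaving out each array.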

Additional observations from a re-analysis of the deposited data

Results flagged for a closer look

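Differences between clones were listed where the F test among the clones and the difference itself were both called (limma), and the largest called difference between 2 clones is given for each gene. Groups of 3 arrays were not tested for outlying arrays.

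C#1 was above C#6 by 1.78 for MIR454, 1.61 for MIR579, 1.45 for MIR21, 0.98 for MIR5047, 0.81 for MIR4534, 0.79 for MIR2909 and 0.75 for MIR423, while for MIR4521 C#1 minus C#6 was -1.67. C#2 was above C#6 by 0.93 for MIR196A2 and 0.76 for MIR4737, and C#3 was above C#6 by 0.65 for MIR27B. Against C#3, C#1 had differences of -0.8 for MIR4453 and -0.48 for MIR375, and C#2 had one of -0.65 for MIR1269B. MIR769, just below the limit of detection used here, had a C#1 minus C#3 difference of -0.52.

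Among the genes that hold or process microRNAs, C#1 minus C#6 was 0.81 for SKA2, 0.49 for AMBRA1, 0.45 for VMP1 and -0.38 for EIF4H. C#2 minus C#6 was 0.53 for AATF, -0.43 for PARN and -0.32 for ITCH, and C#2 minus C#3 was -0.96 for TNRC6C.

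Several of these calls were lost when 1 array was left out. For MIR196A2 this held without C#2 replicate 1 or 3 and without C#6 replicate 2 or 3, for MIR1269B without C#2 replicate 1 and C#3 replicate 2 or 3, for MIR423 without C#1 replicate 2 or C#6 replicate 2, and for MIR4534 without C#1 replicate 2 or C#6 replicate 3. It also held for MIR27B without C#3 replicate 1 or C#6 replicate 2, for MIR375 without C#3 replicate 3, for MIR769 without C#3 replicate 1, for PARN without C#6 replicate 3 and for ITCH without C#2 replicate 3 or C#6 replicate 1 or 3. The MIR423 difference was lost with the mean of its probe sets, and those of MIR5047, EIF4H, MIR1269B and ITCH when only the groups compared were fitted. That of MIR1269B was lost with array weights too.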

How the results depend on the processing

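No alternative reversed a called difference of a member chosen for naming. Of 82 calls of these members against parental cells, 30 were lost when at least 1 of the 15 arrays was left out, 5 with quantile normalization run again and 29 at an adjusted p below 0.01. With 1 array left out, members called numbered 13 to 35 in C#1, 23 to 37 in C#2, 22 to 40 in C#3 and 25 to 46 in C#6, 4 to 9 in all 4 clones and 23 to 34 in the F test. Between clones the ranges were 0 to 0 (C#1 and C#2), 10 to 23 (C#1 and C#3), 9 to 22 (C#1 and C#6), 7 to 18 (C#2 and C#3), 7 to 21 (C#2 and C#6) and 6 to 12 (C#3 and C#6). Biogenesis genes called numbered 0 to 5, 2 to 9, 2 to 7 and 3 to 6. At an adjusted p below 0.01, members called were 12, 17, 17 and 19 in the 4 clones, 11 in the F test, 4 (C#1 and C#3), 8 (C#1 and C#6), 3 (C#2 and C#3), 4 (C#2 and C#6) and 2 (C#3 and C#6), and biogenesis genes 0, 1, 1 and 2. Array weights gave 72 in C#1, 73 in C#6, 35 (C#1 and C#3), 37 (C#1 and C#6) and 16 in all 4 clones. Fitting only the groups compared gave 49 in C#1, 11 (C#2 and C#6) and 10 in all 4 clones. A stricter filter (60th percentile) gave 10 in all 4 clones. Members with a mean of 5 or more gave 23 in C#3 and 2 in all 4 clones, by construction fewer members. Quantile normalization left 2 and 4 biogenesis genes in C#1 and C#2. Deviations from group means of same-numbered arrays correlated between -0.129 and 0.0694 for clone and parental arrays and between -0.123 and 0.462 (median 0.158) for 2 clones, where 10 of 18 pairs were above 0.1, all 6 pairs of replicate 1 among them, and 9 of 12 clone arrays correlated best with their own number. This is a hint of shared structure among the clones from the data, not the design. With the replicate number as a block, 10 members were called in all 4 clones, 5 higher and 5 lower, against 6 without it, 37 in the F test, and 22 (C#1 and C#3), 19 (C#1 and C#6), 14 (C#2 and C#3), 21 (C#2 and C#6) and 12 (C#3 and C#6). The cause of these shifts was not tested, except where fewer samples, genes or a lower threshold made them. The share of lower calls with arrays centred on their medians was 65.5, 54.3, 47.1 and 52.5%. Members near 4.5 lie close to background, where RMA compresses changes.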
